A study of Mus musculus with 27 samples.

Results

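The genes described here are the expressed zinc finger protein genes of 3T3-L1, a line of mouse fibroblasts that hormones can turn into fat cells. They are the genes whose 1 symbol on the array's platform is Zfp followed by digits (Zfp36 and Zfp423 set aside), read from the probe set with the highest mean, and with a mean log2 intensity of at least 8 over the 3 arrays of vector cells at 0 h. Of 315 such genes measured, 240 met that level and 75 did not, among 19938 genes in all. The members were thus chosen by their level in the vector cells at 0 h, and no comparison that uses the vector 0 h arrays is treated as a test. Zfp94, Zfp239 and Zfp456 lay just inside the level with means of 8.01, 8.03 and 8.05, and Zfp366, Zfp974 and Zfp775 lay just outside it with 7.999, 7.976 and 7.96.

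The series holds 27 Affymetrix arrays of total RNA, 1 per sample, in 9 groups of 3 that the series text calls biological triplicates. The cells carried Flag-ISL1, a tagged LIM homeodomain transcription factor, or the pMIG vector. Cells were left for 2 days after confluence, and those sampled after 0 h then received 250 nM dexamethasone, 0.5 mM isobutylmethylxanthine (a blocker of cAMP breakdown), 350 nM insulin and 400 nM biotin in 10% fetal calf serum. Flag-ISL1 cells were taken at 0 and 48 h, and vector cells at 0, 0.5, 1, 2, 4, 8 and 48 h, the 0 h cells without the mixture. The samples are numbered in 3 separate ranges, 1 for 0 h, 1 for 0.5 to 8 h and 1 for 48 h. The sample labels do not say whether the ranges were handled apart. In comparisons across ranges, such as 48 h against 8 h or 0 h, time and any such difference cannot be told apart. The sources used here do not say whether the lines were pools or single clones, or which promoter drove Flag-ISL1.

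Zinc finger proteins of the C2H2 type bind DNA, and some bind RNA, through repeated fingers folded around a zinc ion. A large group of them carries a KRAB domain, which recruits the corepressor Trim28 and with it the histone methyltransferase Setdb1, so that the bound DNA is packed as heterochromatin; many silence mobile elements, and their genes lie in clusters that arose by local duplication. Others act without KRAB as transcription factors, and a few steer the choice of precursor cells to become fat cells. The files do not say which members carry a KRAB domain.

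The construct was checked first. Isl1 had log2 intensities of 12.64, 12.62 and 12.61 on the Flag-ISL1 arrays at 0 h, against 7.37, 7.47 and 7.17 on the vector arrays at 0 h. At 48 h it had 12.79, 12.76 and 12.72 on the arrays labelled vector, against 7.48, 8.01 and 7.47 on the arrays labelled ISL1. The 48 h labels therefore run against the Isl1 signal, and the 48 h groups are called here high-Isl1 (labelled vector) and low-Isl1 (labelled ISL1). Fibroblast markers had mean levels of 9 genes between 12.00 and 13.26 by array, highest at 0.5 h and lowest at 48 h, whereas lists of macrophage, endothelial and epithelial markers averaged between 6.74 and 7.72. Array medians over all probe sets ran from 7.89 to 8.07.

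Across the whole set, levels were lower at 1 and 2 h than at 0.5 h, and the medians at 4 and 8 h lay between. The median member had 8.86 at 1 h, 8.92 at 2 h, 9.08 at 4 h and 9.14 at 8 h, against 9.23 at 0.5 h. By array, the member medians were 8.69, 9.04 and 8.95 at 1 h and 8.96, 8.91 and 8.99 at 2 h, against 9.16, 9.28 and 9.22 at 0.5 h. The 4 h arrays had 9.06, 9.17 and 9.10, and the 8 h arrays 8.99, 9.30 and 9.12, where replicate 1 lay level with a 2 h array and replicate 2 above every 0.5 h array. All 6 of the 1 and 2 h arrays lay under all 3 of the 0.5 h arrays. The medians of all 19938 genes at 1 and 2 h also lay under those at 0.5 h, but by less. They were 8.26, 8.23 and 8.25 at 1 h and 8.20, 8.25 and 8.20 at 2 h, against 8.30, 8.28 and 8.31 at 0.5 h. Unlike the member medians, they did not climb from 2 to 4 h. The all-gene medians were 8.21, 8.22 and 8.19 at 4 h and 8.26, 8.20 and 8.25 at 8 h. The lowest of the 5 group means from 0.5 to 8 h fell at 1 h for 87 members, at 2 h for 86, at 4 h for 36, at 8 h for 20 and at 0.5 h for 11. In limma's F test over these 5 vector groups, 222 of 240 members (92.5%) varied with an adjusted p under 0.05, beside 50.4% of all genes. The F test share was not taken among genes with a vector 0 h level of at least 8. Such genes passed single comparisons more often: at 4 h against 0.5 h 36.5% of them fell, beside 21.8% of all genes. Fewer cells holding an RNA and less of it per cell cannot be told apart in such bulk samples.

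**Figure D1:**
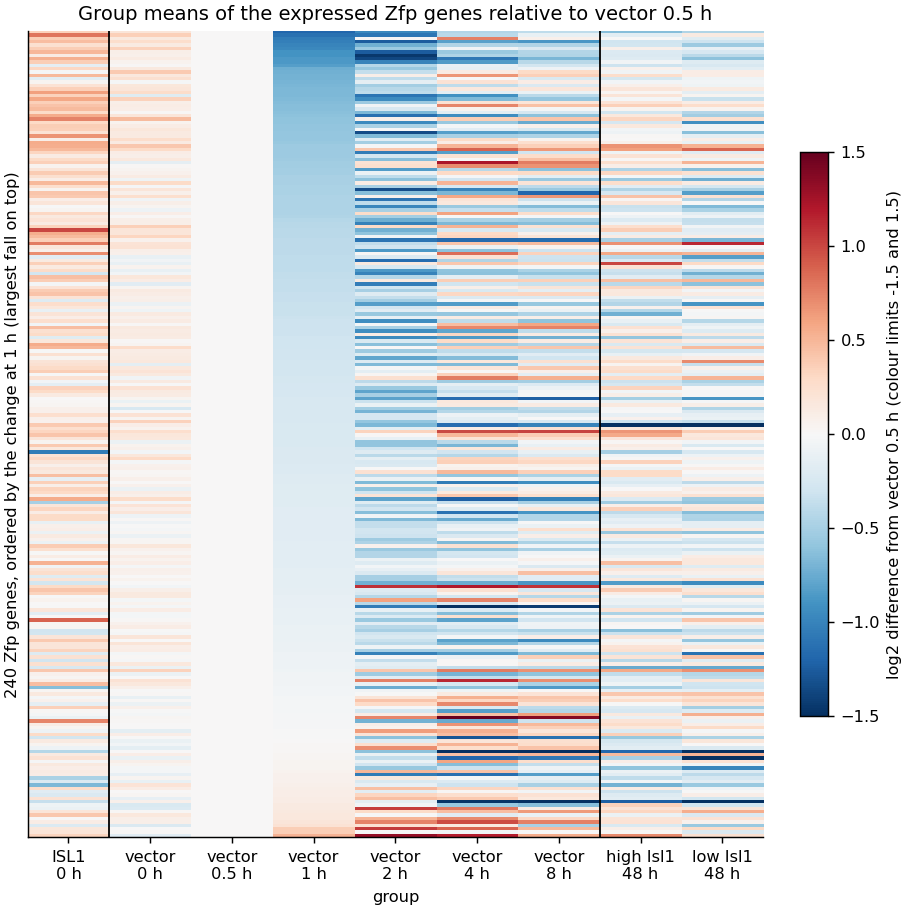
Group means of the 240 Zfp genes as log2 differences from the vector 0.5 h mean, 1 row a gene, ordered by the change at 1 h, with the 9 groups along the horizontal axis and vertical lines setting off the ISL1 0 h group and the 48 h groups. The 1 and 2 h columns are mostly blue (211 of 240 members below 0 at 1 h and 189 at 2 h), and the 4 and 8 h columns mix blue and red.

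At 1 h against 0.5 h, 78 members fell and 3 rose (limma, adjusted p under 0.05 over all genes). Over all genes 1.77% fell and 1.84% rose, and over the 10806 genes with the same level of at least 8 at 0 h 2.91% fell. The median difference was -0.23 for the members and -0.03 for all genes. At least 2-fold falls past the test were seen in 4 of 240 members, beside 9 of all 19938 genes. The largest falls were those of Zfp763, Zfp418, Zfp39, Zfp759 and Zfp551, and the 3 risers were Zfp330, Zfp869 and Zfp948. The vector 1 h array of replicate 1 lay lowest for the members. Without it 48 members fell, beside 1.01% of all genes. With each array centred on its median 55 members fell and 3 rose, beside 0.898% and 2.14% of all genes.

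Zfp763 had 6.80, 7.75 and 7.37 at 1 h, against 8.26, 8.65 and 8.56 at 0.5 h, a difference of -1.18 ± 0.186, adjusted p = 0.000104. The 1 h arrays were spread over almost 1 log2 unit, yet all lay under the 0.5 h arrays. Zfp418, a KRAB zinc finger gene, had 6.60, 7.05 and 7.03 at 1 h, against 7.92, 8.19 and 7.93 at 0.5 h (-1.12 ± 0.125, adjusted p = 5.24e-07). Zfp39 had 8.03, 8.52 and 8.45 at 1 h, against 9.22, 9.49 and 9.44 at 0.5 h (-1.05 ± 0.10, adjusted p = 3.33e-08). The groups did not overlap for either gene. Zfp39 did not stay low: its arrays read 9.31, 9.44 and 9.44 at 2 h and 10.14, 10.03 and 10.25 at 4 h, and every 4 h array lay above every 0.5 h array.

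Of the 3 risers at 1 h, Zfp330 and Zfp948 were higher still at 2 h. Zfp330, which encodes a nucleolar protein, had 10.37, 10.88 and 10.89 at 1 h and 11.44, 11.46 and 11.57 at 2 h, against 10.20, 10.26 and 10.10 at 0.5 h. Its rise was 0.52 ± 0.118, adjusted p = 0.00744 at 1 h and 1.30 ± 0.118, adjusted p = 2.04e-09 at 2 h. Zfp948, the fifth highest member by mean level, had 11.80, 11.78 and 11.82 at 1 h and 12.51, 12.47 and 12.49 at 2 h, against 11.46, 11.42 and 11.42 at 0.5 h. Arrays of the later time did not overlap those at 0.5 h for either gene. Zfp869 differed by 0.37 ± 0.0791, adjusted p = 0.00463 at 1 h and did not pass at 2 h (adjusted p = 0.985).

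The promoters of the 3 largest falls at 1 h that have one in the RefSeq table are shown. These genes were picked by that fall, and their later courses differed. At 4 h Zfp418 had 7.54, 7.64 and 7.66, all under its 0.5 h arrays, whereas the Zfp39 arrays lay above those at 0.5 h. Each promoter is 300 bases of GRCm38.p6, 5′ to 3′ along the gene, from 250 bases before to 50 after the start. Capitals mark GGGCGG (the GC box bound by Sp1-type factors) or CCAAT (the box bound by NF-Y) on either strand. Zfp763 lies at chr17:33033332-33033631 on the minus strand, Zfp418 at chr7:7171103-7171402 on the plus strand and Zfp39 at chr11:58904176-58904475 on the minus strand.
Zfp763: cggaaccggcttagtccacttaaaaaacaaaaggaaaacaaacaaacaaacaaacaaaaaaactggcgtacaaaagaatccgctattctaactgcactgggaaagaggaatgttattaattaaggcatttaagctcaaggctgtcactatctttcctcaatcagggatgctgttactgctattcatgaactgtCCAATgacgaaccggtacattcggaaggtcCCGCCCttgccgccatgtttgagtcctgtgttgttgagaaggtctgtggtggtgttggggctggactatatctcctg
Zfp418: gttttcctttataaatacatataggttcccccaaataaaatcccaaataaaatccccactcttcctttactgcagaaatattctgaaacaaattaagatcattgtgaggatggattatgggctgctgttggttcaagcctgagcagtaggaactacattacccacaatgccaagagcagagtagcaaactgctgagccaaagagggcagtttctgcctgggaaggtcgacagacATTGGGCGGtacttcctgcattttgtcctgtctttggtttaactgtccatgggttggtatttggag
Zfp39: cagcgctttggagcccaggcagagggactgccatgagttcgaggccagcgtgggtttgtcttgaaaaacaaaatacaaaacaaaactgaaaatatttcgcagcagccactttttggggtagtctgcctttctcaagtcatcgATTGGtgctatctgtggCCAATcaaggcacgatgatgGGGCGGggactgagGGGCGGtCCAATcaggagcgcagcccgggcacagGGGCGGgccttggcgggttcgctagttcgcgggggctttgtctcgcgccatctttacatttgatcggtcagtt
Zfp763 held 1 GC box and 1 CCAAT box, Zfp418 held 1 of each, which overlap, and Zfp39 held 3 of each.

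More members, and more of all genes, passed as lower at 2 h than at 1 h. At 2 h against 0.5 h, 134 members fell and 27 rose, beside 15.4% and 10.3% of all genes and 25.9% falling among genes of the same starting level. The median difference was -0.29 for the members and -0.02 for all genes. Of the 240 members 20 were at least 2-fold lower and 4 at least 2-fold higher. Beside them stand 188 and 309 of all 19938 genes, and 175 and 257 of the 10806 with the same starting level. The largest falls were those of Zfp563, Zfp300, Zfp677, Zfp983, Zfp72, Zfp759, Zfp248, Zfp358, Zfp442 and Zfp667, from -1.45 to -1.10. The largest rises were those of Zfp330, Zfp52, Zfp948, Zfp516, Zfp263, Zfp623, Zfp326, Zfp697, Zfp469 and Zfp451, from 1.30 to 0.61. Zfp326 encodes a factor that links transcription elongation to splicing, and Zfp451 a SUMO ligase. ZNF469, the human counterpart of Zfp469, is mutated in a disease of fragile corneas.

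Zfp563 had 7.93, 7.82 and 8.06 at 2 h, against 9.39, 9.36 and 9.41 at 0.5 h (-1.45 ± 0.114, adjusted p = 1.47e-10), and its arrays at 4 h read 8.82, 8.96 and 8.99. Zfp677 had 7.59, 7.33 and 7.59 at 2 h, against 8.70, 8.96 and 8.87 at 0.5 h (-1.35 ± 0.127, adjusted p = 3.79e-09). Zfp300 had 6.76, 6.24 and 6.93 at 2 h, against 7.77, 8.10 and 8.14 at 0.5 h (-1.37 ± 0.184, adjusted p = 1.5e-06). The 2 h arrays of these 3 genes lay wholly under those at 0.5 h, and the 4 h arrays of Zfp563 lay between. Zfp52 had 10.09, 9.82 and 10.07 at 2 h, against 8.81, 8.95 and 8.96 at 0.5 h (1.09 ± 0.130, adjusted p = 2.27e-07), after 8.47, 8.91 and 8.91 at 1 h. Its rise came between 1 and 2 h, with a step of 1.23 ± 0.130, adjusted p = 5.15e-08.

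The promoters of 3 of these risers are set beside those of the falls, on the same build and with the same marks. Zfp330 lies at chr8:82774096-82774395 on the minus strand, Zfp52 at chr17:21535289-21535588 on the plus strand and Zfp948 at chr17:21566728-21567027 on the plus strand.
Zfp330: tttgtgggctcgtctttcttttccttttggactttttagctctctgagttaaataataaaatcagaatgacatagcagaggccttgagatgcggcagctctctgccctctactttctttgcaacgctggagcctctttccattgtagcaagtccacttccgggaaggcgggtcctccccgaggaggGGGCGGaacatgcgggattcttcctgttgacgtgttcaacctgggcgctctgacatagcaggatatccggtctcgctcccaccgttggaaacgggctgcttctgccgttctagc
Zfp52: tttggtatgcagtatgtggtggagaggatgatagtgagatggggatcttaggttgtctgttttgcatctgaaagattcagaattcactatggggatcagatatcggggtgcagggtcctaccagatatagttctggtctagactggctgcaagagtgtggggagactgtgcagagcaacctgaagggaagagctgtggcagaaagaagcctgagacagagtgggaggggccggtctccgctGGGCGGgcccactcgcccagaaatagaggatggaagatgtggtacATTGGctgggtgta
Zfp948: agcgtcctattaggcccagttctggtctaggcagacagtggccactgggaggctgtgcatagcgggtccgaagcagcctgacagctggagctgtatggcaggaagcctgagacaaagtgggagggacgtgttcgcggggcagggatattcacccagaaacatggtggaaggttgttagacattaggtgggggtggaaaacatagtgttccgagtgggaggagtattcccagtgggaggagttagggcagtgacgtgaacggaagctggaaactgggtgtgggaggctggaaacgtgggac
Zfp330 held 1 GC box, Zfp52 held 1 GC box and 1 CCAAT box, and Zfp948 held neither set of letters in this window.

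Over the 195 members with a promoter in the table (244 promoters, a gene counted once if any of its promoters held the letters), GGGCGG was found in 51.3%, against 53.0% of 15563 genes. It was found in 25 of 69 members that fell at 1 h (36.2%) and in 15 of 21 that rose at 2 h (71.4%). The median GC content was 54.0% in the members that fell at 1 h and 60.0% in those that rose at 2 h, against 57.5% in all genes, and how far base composition sets the GC box shares was not tested. CCAAT was found in 55.1% of those that fell at 1 h, in 50.3% of the members and in 41.7% of all genes. Searched likewise on both strands, CCGGAAG (an ETS core) was found in 20.5% of members and 13.6% of all genes, ATGGCGG (a YY1 core) in 12.8% and 6.39%, TGACGT (part of the CRE) in 13.8% and 10.2%, CACGTG (an E-box) in 7.18% and 9.52%, and TATAAA in 9.23% and 13.6%. These are matches of letters and were not tested.

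Between 1 and 2 h the members went both ways: 73 fell and 59 rose (30.4% and 24.6%). Over all genes 11.3% fell and 9.47% rose, and over genes with the same starting level 19.4% and 15.3%. The largest falls in this step were those of Zfp438, Zfp608, Zfp395, Zfp983 and Zfp248, from -1.11 to -0.78, and the largest rises those of Zfp52, Zfp39, Zfp770, Zfp516 and Zfp263, from 1.23 to 0.81. Zfp438 had 7.51, 7.41 and 7.82 at 2 h, against 8.50, 8.88 and 8.70 at 1 h, without overlap.

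Between 2 and 4 h the direction turned. At 4 h against 2 h, 109 members rose and 23 fell, beside 13.7% and 14.2% of all genes, and the median difference was 0.22 for the members and 0.01 for all genes. Among genes of the same starting level 22.7% rose. Of the 78 members that fell at 1 h against 0.5 h, 57 (73.1%) rose in this step and 0 fell (64 and 2 at limma's unadjusted p under 0.05), in arrays that the earlier comparison did not use; of the other 162 members, 52 (32.1%) rose and 23 fell. Those 57 make up 52.3% of the 109 risers. The largest rises were those of Zfp442, Zfp566, Zfp141, Zfp563 and Zfp595, from 1.30 to 0.90, and the largest falls those of Zfp618, Zfp521, Zfp827, Zfp395 and Zfp277, from -1.32 to -0.67. ZNF827, the human counterpart of Zfp827, is known for bringing the NuRD complex to telomeres.

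Zfp566 had 9.51, 9.50 and 9.46 at 4 h, against 8.34, 8.13 and 8.37 at 2 h (1.21 ± 0.121, adjusted p = 1.83e-08). Zfp141 had 10.52, 10.56 and 10.63 at 4 h, against 9.61, 9.57 and 9.53 at 2 h (1.00 ± 0.115, adjusted p = 1.92e-07). For both genes the 4 h arrays lay wholly above the 2 h arrays. Zfp618, by contrast, had 8.69, 8.73 and 8.58 at 4 h, against 9.98, 9.92 and 10.07 at 2 h (-1.32 ± 0.0797, adjusted p = 3.16e-12), again without overlap and in the other direction.

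Set against 0.5 h, 95 members were lower and 63 higher at 4 h, beside 21.8% and 16.9% of all genes and 36.5% and 26.9% of genes with the same starting level. With each array centred on its median the split became 78 lower and 80 higher, so the balance of falls and rises at 4 h rests on the scaling. The largest falls at 4 h were those of Zfp395, Zfp521, Zfp618, Zfp277 and Zfp414, from -1.84 to -1.22, and the largest rises those of Zfp326, Zfp141, Zfp52, Zfp330 and Zfp263, from 1.57 to 1.13. Zfp326 had 10.72, 10.98 and 10.80 at 4 h, against 9.17, 9.33 and 9.28 at 0.5 h, and it still had 10.52, 10.82 and 10.57 at 8 h. All 6 of these later arrays lay over a full log2 unit above the 0.5 h arrays.

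At 8 h against 0.5 h, 85 members were lower and 59 higher (35.4% and 24.6%). Over all genes 20.9% were lower and 20.3% higher, and over genes with the same starting level 35% and 31.0%. Of the 240 members 10 were at least 2-fold lower and 3 at least 2-fold higher. Beside them stand 757 and 571 of all 19938 genes, and 732 and 494 of the 10806 with the same starting level. Without the vector 8 h array of replicate 2 the member counts were 100 lower and 43 higher. With each array centred on its median they were 73 and 66, so the excess of falls at 8 h also depends on the scaling. Of the 9 fibroblast markers 6 fell at 4 h (median -0.35) and 7 at 8 h (median -0.58), and of the 10 adipocyte markers 5 fell and 1 rose at 8 h; their part in the members' changes was not tested. The falls were led by Zfp618, Zfp521, Zfp395, Zfp467, Zfp229, Zfp40, Zfp277, Zfp827, Zfp414 and Zfp57, from -1.74 to -1.01. The rises were led by Zfp326, Zfp52, Zfp719, Zfp141, Zfp623, Zfp566, Zfp263, Zfp672, Zfp398 and Zfp954, from 1.38 to 0.66. Zfp719 had 10.71, 10.91 and 10.88 at 8 h, against 9.69, 9.89 and 9.88 at 0.5 h (1.02 ± 0.0933, adjusted p = 8.48e-10), with no overlap. Zfp229, whose fall had the widest standard error of those named, had 6.98, 8.42 and 7.51 at 8 h, against 8.63, 8.96 and 8.88 at 0.5 h (-1.19 ± 0.265, adjusted p = 0.000516).

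At 8 h against 4 h, 40 members rose and 31 fell (16.7% and 12.9%). Over all genes 13.7% rose and 10.2% fell, and over genes with the same starting level 22.7% and 17.4%. These counts moved with single arrays: 23 and 26 rose without the vector 4 h array of replicate 1 or of replicate 3, and 20 fell without the vector 8 h array of replicate 1, as without that of replicate 3. Without the vector 8 h array of replicate 2 the balance turned, with 28 rises and 39 falls. With each array centred on its median 25 rose and 31 fell. Zfp687, Zfp873, Zfp367, Zfp667 and Zfp821 rose most, by 0.57 to 0.49, and Zfp39, Zfp516, Zfp330, Zfp281 and Zfp365 fell most, from -0.68 to -0.56. Of the 27 members that rose at 2 h against 0.5 h, 14 fell between 4 and 8 h and 0 rose in limma's test, or 16 and 1 at an unadjusted p under 0.05 (the 14 are 51.9% of those 27 and 45.2% of the 31 falls). Of the 134 that fell at 2 h, 34 rose and 3 fell in the same step.

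**Figure D2:**
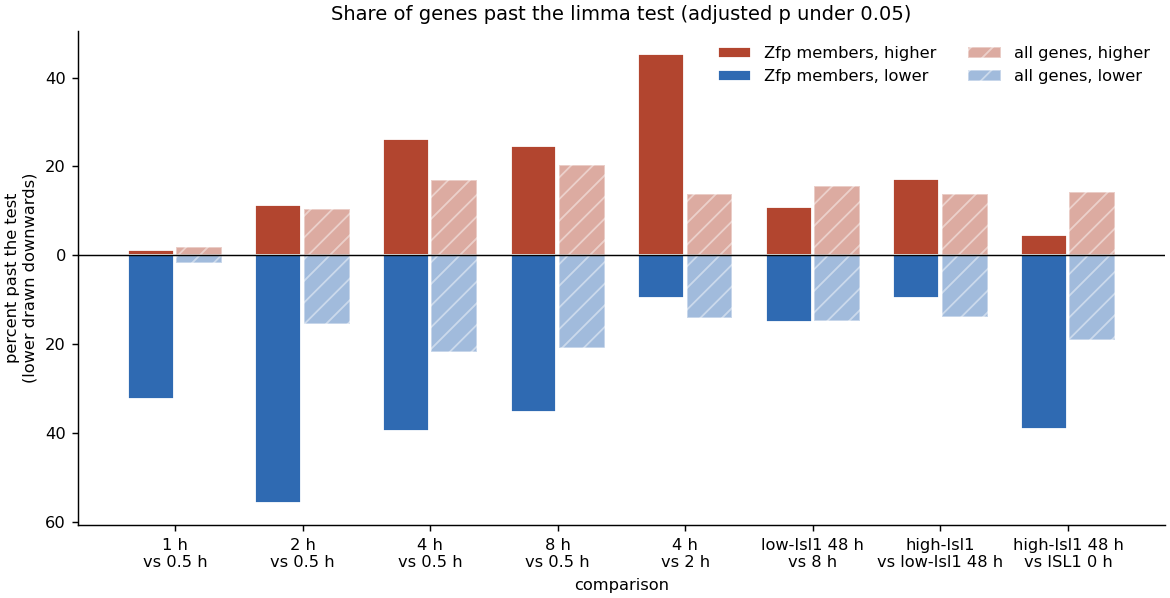
Percent of the 240 Zfp members (solid bars, left of each pair) and of all 19938 genes (hatched bars) past the limma test in 8 comparisons, with higher genes drawn upwards in red and lower genes downwards in blue. At 1 h 32.5% of members fell beside 1.77% of all genes, and at 4 h against 2 h 45.4% of members rose beside 13.7%.

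**Figure D3:**
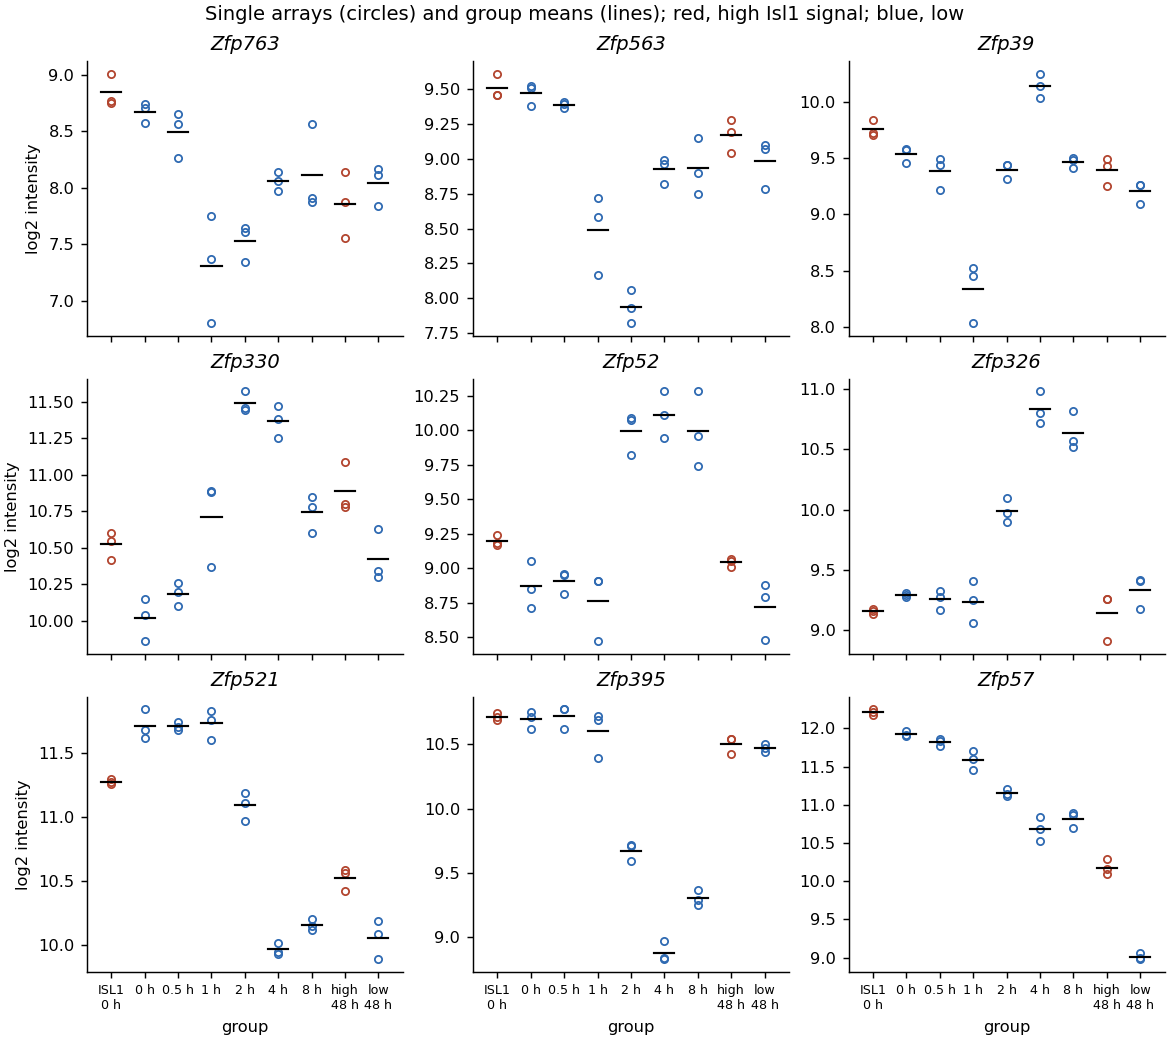
Log2 intensity of 9 members on every array (circles) with group means (lines), the groups along the horizontal axis, red for arrays with a high Isl1 signal and blue for those with a low one. Zfp763, Zfp563 and Zfp39 dip at 1 or 2 h; Zfp330, Zfp52 and Zfp326 rise; Zfp521 and Zfp395 are lowest at 4 h; and Zfp57 is lowest in the low-Isl1 arrays at 48 h.

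Neighbouring members were then compared, since zinc finger genes lie in clusters. In the RefSeq gene order of GRCm38.p6 there were 27 runs of at least 3 protein-coding Zfp genes in a row, with 141 genes, and 86 members lay in them. At 1 h against 0.5 h, 43 of the 86 members in runs fell (50%), as did 35 of the 154 outside runs (22.7%), beside 1.77% of all genes. The median differences were -0.36 in runs and -0.17 outside them. Of the 22 runs with at least 2 members, 21 had a median under 0 at 1 h, and 21 had a median above 0 at 4 h against 2 h. Most members had these signs in or out of runs: of all 240, 211 lay below 0 at 1 h and only 63 at 4 h against 2 h. In that later step 48 of the 86 members in runs rose and 2 fell, and 61 of the 154 outside runs rose and 21 fell. Over all genes 13.7% rose and 14.2% fell. Chromosome 7 held 63 members, 26 of which fell at 1 h, chromosome 17 held 31 with 10 falls and chromosome 13 held 18 with 10 falls. Of all 240 members 78 fell (32.5%), and differences between chromosomes were not tested.

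The run from Zfp472 to Zfp563 on chromosome 17 had the lowest median at 1 h, -0.89, and all 3 of its members fell, with log2 differences of -0.55 ± 0.0954 for Zfp952, -1.18 ± 0.186 for Zfp763 and -0.89 ± 0.114 for Zfp563. The same 3 rose at 4 h against 2 h, with a median of 0.53. The run from Zfp180 to Zfp94 on chromosome 7 had 7 members, of which 5 fell at 1 h and 6 at 2 h, and 5 rose at 4 h against 2 h. The longest run, from Zfp84 to Zfp146 on chromosome 7, had 10 members, of which 5 fell at 1 h and 6 at 2 h, and 8 rose at 4 h against 2 h.

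The run from Zfp677 to Zfp983 on chromosome 17 moved both ways: 7 of its 7 genes were members, and at 2 h 3 were lower and 2 higher than at 0.5 h. Zfp677 differed by -1.35 ± 0.127 and Zfp983 at the other end by -1.33 ± 0.149, while Zfp52 differed by 1.09 ± 0.130 and its neighbour Zfp948 by 1.05 ± 0.0527. Zfp53, on the other side of Zfp52, differed by 0.14 ± 0.0959 (adjusted p = 0.368). Genes of a run are often near copies, and the probes were not compared with the copies' sequences, so the values of neighbours are uncertain to that extent.

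**Figure D4:**
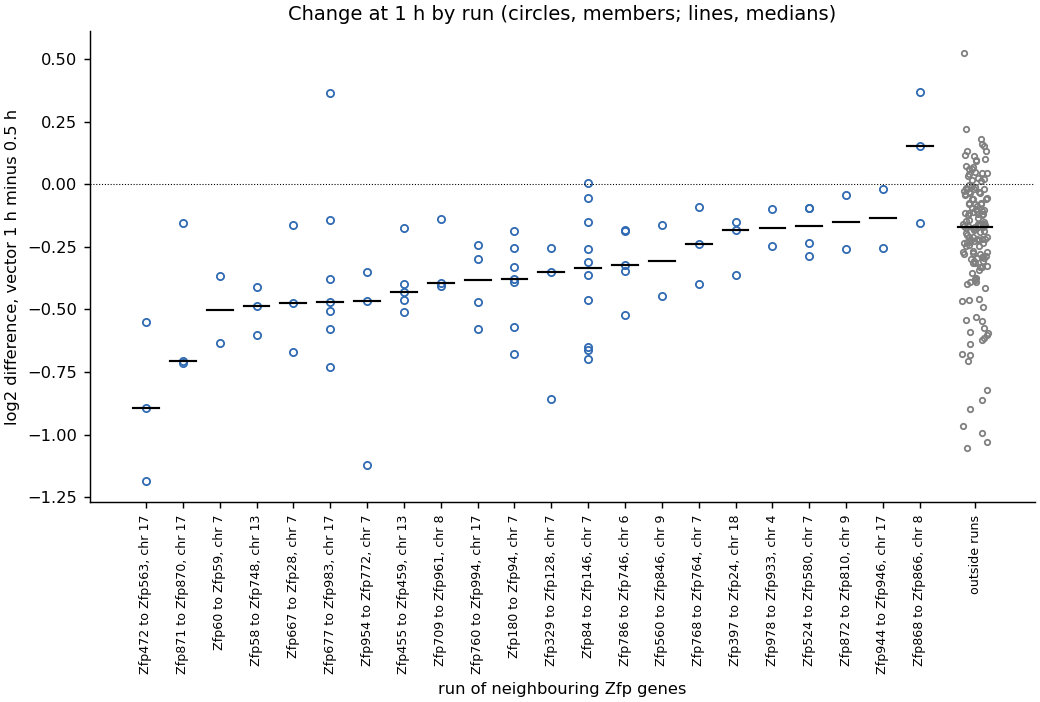
Log2 difference of each member at 1 h minus 0.5 h (circles) for the 22 runs with at least 2 members, ordered by their medians (lines) and named by first and last gene and chromosome, beside the 154 members outside runs (grey). Of the 22 medians 21 lie under 0, as do 211 of all 240 members, and single members lie from -1.18 to 0.37 within runs.

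Members with a known part in fat cell formation were mostly lowered at 4 h. Of the 7 on this list, 0 passed limma's test at 1 h (1 lower at an unadjusted p under 0.05), 4 fell and 1 rose at 2 h, 5 fell and 1 rose at 4 h, and 5 fell at 8 h, beside 15.4% falling and 10.3% rising among all genes at 2 h, 21.8% and 16.9% at 4 h and 20.9% falling at 8 h. Fibroblast and preadipocyte markers fell over the same times, with array means of 12.82 to 12.84 at 4 h and 12.57 to 12.61 at 8 h, against 13.22 to 13.26 at 0.5 h, and their part was not tested. The list's median difference was -0.83 at 4 h and -0.64 at 8 h, against 0.05 over all genes at 8 h. Zfp521, which holds precursor cells back from the fat lineage, had 9.93, 9.95 and 10.02 at 4 h, against 11.68, 11.70 and 11.74 at 0.5 h (-1.74 ± 0.0778, adjusted p = 1.08e-15). Zfp395, whose human counterpart ZNF395 has been linked to fat cell formation, had 8.83, 8.84 and 8.97 at 4 h, against 10.62, 10.77 and 10.77 at 0.5 h (-1.84 ± 0.0742, adjusted p = 1.31e-16). The 4 h arrays of both genes lay more than a log2 unit under the 0.5 h arrays. Zfp467, known to favour fat cell over bone cell fate in mouse stromal cells, had 7.53, 7.43 and 7.23 at 8 h, against 8.63, 8.55 and 8.68 at 0.5 h (-1.22 ± 0.0813, adjusted p = 1.83e-12).

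Zfp516, a brown fat transcription factor that works with Prdm16, went the other way, with 10.67, 10.67 and 10.77 at 2 h, against 9.63, 9.62 and 9.74 at 0.5 h (1.04 ± 0.0774, adjusted p = 5.25e-11). Its difference at 8 h was 0.13 ± 0.0774, adjusted p = 0.223, which did not pass. Zfp407, which raises Pparg target genes, fell, with differences of -0.83 ± 0.106 at 4 h and -0.44 ± 0.106 at 8 h. Zfp217, reported to favour fat cell formation in mouse cells, differed by -0.57 ± 0.122 at 4 h and by -0.64 ± 0.122 at 8 h. Zfp638, an RNA-binding cofactor of C/EBP proteins in fat cell formation, was lower at 2 h (-0.41 ± 0.108, adjusted p = 0.00435) and did not pass at 8 h (0.02 ± 0.108, adjusted p = 0.933).

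Of the 4 members that guard imprints or silence retroelements, 1 fell at 4 h, beside 21.8% of all genes, and the other 3 did not pass. At 8 h 2 were lower and 1 higher, beside 20.9% and 20.3% of all genes. The gene that fell at 4 h was Zfp57, which keeps DNA methylation at imprinted loci through Trim28. It had 10.70, 10.89 and 10.87 at 8 h, against 11.77, 11.86 and 11.84 at 0.5 h (-1.01 ± 0.0763, adjusted p = 2.33e-11). Zfp445, which also guards imprints, differed by 0.13 ± 0.0820, adjusted p = 0.24 at 8 h and did not pass. Zfp809, which silences murine leukaemia proviruses, was lower at 8 h (-0.20 ± 0.0787, adjusted p = 0.0412), and Zfp568, a repressor of a placental Igf2 transcript, was higher (0.24 ± 0.0781, adjusted p = 0.0159).

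Most genes tied to RNA and translation were higher at 8 h than at 0.5 h. Of 9 genes on the list, of which Zfp593 was under the level of 8 and so no member, 6 were higher and 1 lower at 4 h, and 8 were higher at 8 h, with a median of 0.32 at 8 h against 0.05 over all genes. Over all genes 16.9% were higher at 4 h and 20.3% at 8 h, and over genes with the members' starting level 26.9% and 31.0%. The gene lower at 4 h was Zfp207 (-0.18 ± 0.0559, adjusted p = 0.0113), and Zfp638 and Zfp706 did not pass there (-0.22 ± 0.108 and 0.14 ± 0.0744). From 4 to 8 h 3 of the 9 rose and 3 fell. Zfp598, the ubiquitin ligase that marks collided ribosomes, had 9.90, 9.96 and 9.82 at 8 h, against 9.20, 9.32 and 9.26 at 0.5 h (0.63 ± 0.0646, adjusted p = 5.79e-09). Zfp622, which serves in large ribosomal subunit assembly, rose by 0.47 ± 0.0673 at 4 h, and Zfp346, a binder of double-stranded RNA, by 0.60 ± 0.0925. Zfp106, an RNA-binding protein, rose by 0.35 ± 0.0635 at 8 h and Zfp706, the highest member with 12.88 at vector 0 h, by 0.21 ± 0.0744. Zfp207, a spindle protein that binds Bub3, differed by -0.29 ± 0.0559 at 2 h and by 0.17 ± 0.0559 at 8 h, past the test both times. With Zfp330 and Zfp638 these make up the list.

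Of the 17 transcription factors without KRAB on the list, 13 were measured, and 7 fell and 4 rose at 2 h, while 0 passed limma's test at 1 h (4 lower and 1 higher at an unadjusted p under 0.05). At 8 h 4 were lower and 3 higher. Over all genes 15.4% fell and 10.3% rose at 2 h, and 20.9% and 20.3% at 8 h. Zfp384, Zfp335, Zfp652, Zfp687, Zfp532, Zfp644 and Zfp462 fell at 2 h, with Zfp532 at -0.72 ± 0.0718, adjusted p = 1.21e-08, while Zfp592, Zfp410, Zfp131 and Zfp281 rose, with Zfp592 at 0.43 ± 0.0719, adjusted p = 3.32e-05. ZNF532, ZNF592 and ZNF687, the human counterparts, are known as partners in 1 chromatin complex, and here Zfp687 differed by -0.59 ± 0.0910 at 2 h. Zfp410, the activator of the NuRD gene Chd4, rose by 0.32 ± 0.0701. Zfp281, a regulator of pluripotency genes in mouse stem cells, rose by 0.22 ± 0.0721 at 2 h and was lower at 8 h (-0.48 ± 0.0721, adjusted p = 3.16e-06). Zfp148 and Zfp219 did not pass at 2 h, with -0.16 ± 0.0679 and -0.00 ± 0.0744.

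The highest members after Zfp706 were Zfp384, Zfp971 and Zfp207, with 12.75, 12.50 and 12.21 at vector 0 h. Zfp384 and Zfp971 fell at 2 h against 0.5 h, with differences of -0.44 ± 0.0618 and -0.42 ± 0.0766. Zfp384 averaged between 12.28 (2 h) and 12.75 (0 h) over the vector groups from 0 to 8 h, and Zfp971 between 11.97 (2 h) and 12.50 (0 h).

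The corepressors that KRAB proteins recruit were read beside the members. Of 25 on the list 24 were measured, and 0 passed limma's test at 1 h (1 lower at an unadjusted p under 0.05), while 10 fell and 1 rose at 2 h, with a median of -0.17. At 8 h 8 were lower and 7 higher. Over all genes 15.4% fell and 10.3% rose at 2 h, and 20.9% and 20.3% at 8 h. Among genes with the members' starting level 25.9% fell and 16.6% rose at 2 h, and 35% and 31.0% at 8 h. Atf7ip, the partner that stabilises Setdb1, had 10.74 ± 0.0487 at 2 h and 11.26 ± 0.0803 at 8 h, against 11.95 ± 0.0254 at 0.5 h (means ± SD, n = 3 arrays each). Its difference at 2 h was -1.20. Setdb1 itself differed by -0.28 at 2 h and by 0.80 at 8 h, and Trim28 by -0.28 and 0.54, all past the test. Chd3, a NuRD remodeller, differed by -1.11 and Suv39h2, a histone methyltransferase, by 1.02 at 8 h. Of the HUSH silencing complex and its partners 3 of 5 listed names were measured, and at 8 h Pphln1 and Morc2a were higher by 0.58 and 0.82 and Tasor was lower, at -0.29.

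Other zinc finger families were set beside the members at 1 h. Of the 75 Zfp genes under the level of 8, 10 fell (median -0.11), of 31 Zbtb genes at or above 8, 5 fell (median -0.13), and of 13 Zscan and Zkscan genes at or above 8, 5 fell (median -0.25). In these families 0 genes rose, by limma's adjusted p or at an unadjusted p under 0.05. All 13 of the Zscan and Zkscan differences were below 0. At 4 h against 2 h, 16, 6 and 6 genes of these families rose and 1, 6 and 0 fell by limma's adjusted p, with 2, 7 and 0 falls at an unadjusted p under 0.05. Over all genes 1.77% fell at 1 h, and 13.7% rose and 14.2% fell at 4 h against 2 h, or 22.7% and 24.7% of genes with a level of at least 8. Differences between the families were not tested.

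At 48 h in low-Isl1 arrays against vector cells at 8 h, 36 of 240 members were lower and 26 higher. Over all genes 14.9% were lower and 15.7% higher, and the medians were -0.02 for the members and for all genes. Over genes with the same starting level 24.4% were lower and 25.9% higher, both larger shares than among the members. The balance among members turned without 1 array: 29 were lower and 37 higher without the vector 8 h array of replicate 2, and 32 and 37 without the low-Isl1 array of replicate 2. Zfp57 had 8.98, 8.99 and 9.06 in the low-Isl1 arrays, against 10.70, 10.89 and 10.87 at 8 h (-1.81 ± 0.0763, adjusted p = 3.68e-16). Zfp326 and Zfp52, raised at 4 and 8 h, were lower again: Zfp326 had 9.41, 9.18 and 9.42 in the low-Isl1 arrays, against 10.52, 10.82 and 10.57 at 8 h, and Zfp52 differed by -1.27 ± 0.130, adjusted p = 1.18e-08. Neither gene's arrays overlapped. Zfp462, known to limit heterochromatin in mouse stem cells, and Zfp566 completed the largest falls with -0.91 ± 0.0684 and -0.81 ± 0.121.

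Zfp395 had 10.44, 10.50 and 10.47 in the low-Isl1 arrays at 48 h, against 9.25, 9.37 and 9.29 at 8 h (1.17 ± 0.0742, adjusted p = 1.29e-12), so all 3 arrays lay above those at 8 h. Among members whose arrays did not overlap, Zfp367, Zfp961, Zfp277 and Zfp558 followed with rises from 0.69 to 0.54. Of the 27 members that had risen at 2 h, 16 fell in this step and 1 rose (59.3% of those 27 and 44.4% of the 36 falls). The adipocyte markers moved with this comparison: all 10 were higher in the low-Isl1 arrays than at 8 h, with array means of 12.04 to 12.21 against 10.26 to 10.41. Of the 9 fibroblast markers 7 were lower and 1 higher (median -0.54), with array means of 12.00 to 12.16 in the low-Isl1 arrays against 12.57 to 12.61 at 8 h, and the part of either list in the members' changes was not tested.

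In high-Isl1 against low-Isl1 arrays at 48 h, 41 members were higher and 23 lower (17.1% and 9.58%). Over all genes 13.8% were higher and 14.0% lower, and over genes with the same starting level 22.8% and 22.1%. The medians were 0.08 for the members and -0.03 for all genes. The count of lower members was 15 without the low-Isl1 array of replicate 1 and 14 without the high-Isl1 array of replicate 2. All 10 adipocyte markers were lower in the high-Isl1 arrays, whose array means ran from 10.20 to 10.41, against 12.04 to 12.21 in the low-Isl1 arrays (median difference -1.72); their part in the members' differences was not tested. Of the 9 fibroblast markers 2 were higher and 2 lower. Read by the 48 h labels in place of the Isl1 signal, the signs turn round.

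Zfp57 had 10.09, 10.16 and 10.29 in the high-Isl1 arrays, against 8.98, 8.99 and 9.06 in the low-Isl1 arrays (1.17 ± 0.0763, adjusted p = 4e-12). Zfp827 had 10.08, 9.85 and 10.12 in the high-Isl1 arrays, against 9.11, 8.90 and 9.08 in the low-Isl1 arrays (0.99 ± 0.0787, adjusted p = 1.94e-10). Zfp608, known as a repressor of the Rag genes in mouse thymus, had 9.76, 9.49 and 9.63 in the high-Isl1 arrays, against 8.92, 8.78 and 8.77 in the low-Isl1 arrays (0.80 ± 0.0712, adjusted p = 1.4e-09). All 9 high-Isl1 values of these 3 genes lay above the low-Isl1 values. Zfp53 and Zfp358 were higher by 0.71 ± 0.0959 and 0.68 ± 0.0869.

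Zfp367 had 9.49, 9.42 and 9.55 in the high-Isl1 arrays, against 10.34, 10.10 and 10.13 in the low-Isl1 arrays (-0.70 ± 0.0901, adjusted p = 7.24e-07). Zfp101 had 7.84, 7.76 and 8.02 in the high-Isl1 arrays, against 8.74, 8.38 and 8.58 in the low-Isl1 arrays (-0.69 ± 0.126, adjusted p = 0.000101). Neither pair of groups overlapped. Zfp961, Zfp661 and Zfp597 were lower by smaller amounts, with differences of -0.44 ± 0.102, -0.43 ± 0.0707 and -0.43 ± 0.10. Among the genes tied to fat cells Zfp521, Zfp217 and Zfp467 were higher in the high-Isl1 arrays, by 0.47 ± 0.0778, 0.63 ± 0.122 and 0.38 ± 0.0813.

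**Figure D5:**
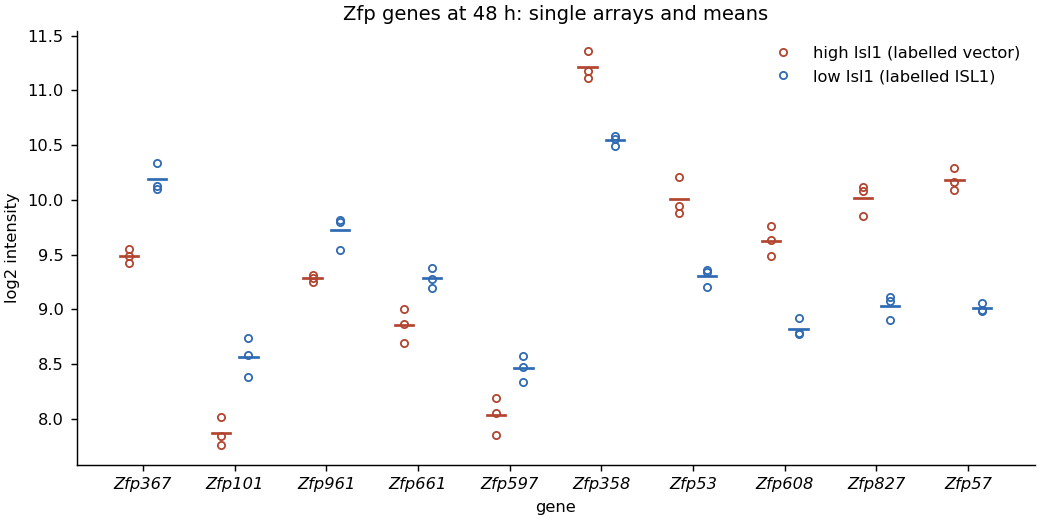
Log2 intensity of the 5 members with the largest fall and the 5 with the largest rise at 48 h, for the 3 high-Isl1 arrays (labelled vector, red, left of each pair) and the 3 low-Isl1 arrays (labelled ISL1, blue), with lines at the means. In each of the 10 genes the 3 arrays of one group lie beyond those of the other, with Zfp57 at 10.18 ± 0.103 in high-Isl1 and 9.01 ± 0.0435 in low-Isl1 arrays (means ± SD, n = 3).

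In high-Isl1 arrays at 48 h against Flag-ISL1 arrays at 0 h, 94 members were lower and 11 higher (39.2% and 4.58%). Over all genes 19.0% were lower and 14.2% higher, and over genes with the same starting level 30.6% and 21.1%. The medians were -0.17 for the members and 0.03 for all genes. With each array centred on its median 72 members were lower and 15 higher. The count of higher members was 7 without the ISL1 0 h array of replicate 1, as without that of replicate 2, and 6 without the high-Isl1 array of replicate 3. Zfp57 had 10.09, 10.16 and 10.29 in the high-Isl1 arrays at 48 h, against 12.25, 12.22 and 12.18 in the Flag-ISL1 arrays at 0 h (-2.03 ± 0.0763, adjusted p = 2.47e-17), with no overlap. Zfp367, Zfp763, Zfp418 and Zfp101 followed, from -1.18 to -0.92, and Zfp53, Zfp503, Zfp217, Zfp330 and Zfp317 rose most, by 0.64 to 0.34. The 10 adipocyte markers were all higher at 48 h here too, with array means of 10.20 to 10.41 against 8.41 to 8.52. Of the 9 fibroblast markers 7 were lower (median -0.36), with array means of 12.07 to 12.19 against 12.78 to 12.82, and the part of either list was not tested.

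Comparisons with the vector 0 h arrays are given as a description, because those arrays chose the members. At 0.5 h against 0 h 5 members passed the limma threshold as lower and 0 as higher (33 and 3 at an unadjusted p under 0.05), beside 0.502% and 0.777% of all genes, and the median difference was -0.07. In Flag-ISL1 against vector arrays at 0 h 47 members passed as higher and 17 as lower, beside 15.3% and 10.4% of all genes, and nothing is read from these counts. Zfp503, a developmental repressor, had 10.19, 10.22 and 10.18 in Flag-ISL1 arrays at 0 h, against 11.27, 11.19 and 11.14 in vector arrays at 0 h. Zfp367 had 10.68, 10.66 and 10.67 in Flag-ISL1 arrays at 0 h, against 9.79, 9.88 and 9.72 in vector arrays at 0 h. These had the widest differences among members in each direction, and the adipocyte markers averaged 8.41 to 8.52 by array in Flag-ISL1 cells against 10.61 to 10.76 in vector cells at 0 h.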

How the data were processed

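Total RNA of 27 samples was hybridised to 1 Affymetrix mouse array each. The deposited log2 values were made by the authors with RMA (background correction, quantile normalization and probe set summary), per the submitters' processing notes; the log base was read from the values, which run from 3.35 to 14.85. RMA gives arrays like distributions, so a change shared by most genes would not be seen. Of 28853 probe sets, 21789 carried 1 gene symbol, 1621 several and 5443 none; probe sets with several or none were left out. A gene was read from its probe set of highest mean, giving 19938 genes; 12 members had more than 1. All 240 members were found by gene ID in the RefSeq table of GRCm38.p6, used for gene order and names.

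The model, in limma 3.58.1 under R 4.3.3, gave each of the 9 groups a mean over all 27 arrays (empirical Bayes, prior degrees of freedom 6.56). Benjamini-Hochberg adjustment ran over all genes of a comparison, with a threshold of 0.05. Tests were two-sided. Differences are log2 ± the standard error of the fit with 3 arrays a group, and the number of arrays limits their precision. The fit was tested on simulated data. In all 10 comparisons without the vector 0 h arrays were tested and 6 with them were described. Alternatives were centring, quantile normalization, other levels and filters, the mean of all probe sets, an intensity trend, a replicate block, only the groups compared, the 48 h labels as written, and each array left out.

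Named are the 10 largest falls and rises past the test without overlap between arrays at 2 and 8 h against 0.5 h, the 5 largest in the other tested comparisons, all genes of the role lists, those beside the level of 8, the 5 highest, and runs of neighbours; the pair widest apart between Flag-ISL1 and vector cells at 0 h, and corepressors beyond the 4 with the largest change, were added after their values were seen. The members, lists and rule were chosen with earlier results of these data known.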

Additional observations from a re-analysis of the deposited data

How the results depend on the processing

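Counts of members changed by at most 1.5 times under the alternatives not named here. With each array centred on its median, 25 members rose at 8 h against 4 h. After quantile normalization 5 rose at 1 h and 22 were higher in high-Isl1 48 h than in ISL1 0 h arrays. With the level raised to 9 fewer genes remain to be called: 39 fell at 1 h, 79 at 2 h, 58 at 4 h and 53 at 8 h against 0.5 h, 37 rose at 4 h and 33 at 8 h, 35 rose from 1 to 2 h, 57 rose from 2 to 4 h, 15 rose in low-Isl1 48 h against 8 h, 56 were lower in high-Isl1 48 h against ISL1 0 h, and 131 varied by the F test. Fitting only the groups compared, which leaves fewer arrays, gave 42 falls and 1 rise at 1 h, 26 rises at 8 h against 4 h and 12 members lower in high-Isl1 than in low-Isl1 arrays at 48 h. With the 48 h labels as written, 64 members rose against 8 h, 41 were lower and 23 higher in arrays labelled ISL1 than in those labelled vector, and 20 were higher than at ISL1 0 h. Leaving out single arrays gave 48 to 88 falls and 2 to 3 rises at 1 h, 20 to 39 falls and 23 to 36 rises at 8 h against 4 h, 14 to 22 members lower in high-Isl1 than in low-Isl1 arrays, and 6 to 13 higher in high-Isl1 48 h than in ISL1 0 h arrays; these causes were not tested.

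With a replicate block 80 members fell at 1 h, in place of 78, and of 403 gene values 401 kept their side of the threshold. Of 36 pairs of groups 4 had all 3 same-numbered correlations above 0.1 (range -0.63 to 0.62), and the main fit did not pair arrays by number. With 3 arrays a group these correlations cannot show whether same-numbered samples shared a culture or a run. Over all alternatives 5239 gene values were recomputed: 4980 kept direction and side of the threshold, 190 no longer passed, 69 newly passed and 0 reversed. Detection calls were not used, so the limit set by background was not measured.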
